A study of Homo sapiens with 4 samples.

Results

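Antisense transcripts are long RNAs read from the strand opposite a named gene, and their symbols carry the name of that sense gene followed by -AS and a number. Here they were taken as the genes whose symbol ends in that way, except those on chromosomes 10 and 20, and each was set beside its sense gene. Of the 32673 genes in the table, 866 bore such a name, 83 of them lay on the chromosomes left out, and 783 antisense transcripts remained. Of these, 601 were annotated as antisense, 108 as lincRNA, 58 as processed transcripts and 4 as protein-coding. A row for the sense gene was found for 744 transcripts, which shared 706 sense genes, and 702 of those sense genes were protein-coding.

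Antisense transcripts arise in several positions. Some start head to head with the sense gene near a shared promoter, some run into its 3′ end, and some lie wholly inside it. They are usually much less abundant than mRNAs, many stay in the nucleus and are degraded there by the RNA exosome, and single members have been described as scaffolds, as sponges for microRNAs or as hosts of small nucleolar RNAs, while for most no function is known.

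The samples were human TF1 cells, an erythroleukaemia line dependent on GM-CSF, transduced with a BCR-ABL retrovirus to model chronic myeloid leukaemia. TF1-BA cells were sensitive to imatinib, the inhibitor of the BCR-ABL kinase, and TF1-BAR cells were the resistant line derived from them by continuous exposure to the drug. There were 2 libraries of each line, both lines were grown with 2 ng/ml GM-CSF, and TF1-BAR cells were cultured with 2 μM imatinib. The sources do not state if cells were still in imatinib at RNA extraction, and the TF1-BAR libraries carry the word vector in their titles. Each line is a single derived population, the labels do not say that the replicates were separate cultures, and the p-values therefore measure only the spread between these libraries. Line, drug and time in culture cannot be told apart.

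The values were FPKM, fragment counts divided by transcript length and library size, as deposited. Library sizes recovered from the FPKM lay between 15465497 and 18042299 fragments. Pearson correlation over genes was 0.983 between the TF1-BA libraries, 0.979 between the TF1-BAR libraries, and 0.946 to 0.956 between lines. Progenitor markers such as CD34, KIT and GATA1 lay between 6.64 and 75.4 FPKM in all libraries, while epithelial markers did not exceed 0.103 FPKM and fibroblast markers did not exceed 0.429 FPKM. Among T cell markers, CD3D measured 19.2 and 20.7 FPKM in TF1-BA and 5.74 and 6.36 FPKM in TF1-BAR, and CD3E and CD3G were at or near 0 in every library. Mitochondrially encoded genes took 10.1% and 9.97% of fragments in TF1-BA and 7.97% and 7.46% in TF1-BAR. The part of either in the results was not tested. The RNA of the methyltransferase SETD2, the subject of the study, measured 9.45 and 9.11 FPKM in TF1-BA and 12.1 and 12.4 FPKM in TF1-BAR (log2 fold change 0.38, limma adjusted p = 0.0213). The paper reported less SETD2 protein in TF1-BAR by Western blot, and no change of its mRNA by quantitative PCR.

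Most antisense transcripts were scarce. No fragment was recorded for 32 of the 783 in any library, 245 had at most 3 fragments in their highest library, 506 exceeded 3 fragments in at least 1 library, and 354 did so in all 4. A mean of at least 0.5 FPKM over the 4 libraries was required for testing, and 257 transcripts met it while 526 did not. Only 89 of the 257 reached a mean of 2 FPKM and 14 reached 10 FPKM. Within pairs in which both genes were tested, the antisense transcript was the minor partner, with a median level of 16.8% of the sense FPKM in TF1-BA and 20.96% in TF1-BAR, and it exceeded the sense gene in every library in 25 of 222 pairs. The libraries were made with a kit that does not mark strand, so fragments from a stretch shared by a gene and its antisense partner cannot be told apart. By GENCODE 44 exons, 83 of the tested transcripts shared no exonic base with any other listed gene, and the median share over the tested transcripts was 4.11% of their exonic length.

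The sequences around the start sites of 6 differentially expressed transcripts are given because these transcripts passed both thresholds and RefSeq places their starts within 20 bases of those in the table. They are windows of 300 bases, 250 before and 50 after the RefSeq start (GRCh38.p14), on the strand of the antisense transcript, with each CG dinucleotide in capitals. The windows are PSMG3-AS1 at chr7:1569823-1570122 (plus strand), IDH1-AS1 at chr2:208254983-208255282 (plus strand), TTLL10-AS1 at chr1:1179506-1179805 (minus strand), CLDN10-AS1 at chr13:95533861-95534160 (minus strand), EPHA1-AS1 at chr7:143407563-143407862 (plus strand) and GPC5-AS1 at chr13:92721565-92721864 (minus strand). For 5 of them the RefSeq start is the start the table gives, and for IDH1-AS1 the starts differ by 14 bases.
PSMG3-AS1: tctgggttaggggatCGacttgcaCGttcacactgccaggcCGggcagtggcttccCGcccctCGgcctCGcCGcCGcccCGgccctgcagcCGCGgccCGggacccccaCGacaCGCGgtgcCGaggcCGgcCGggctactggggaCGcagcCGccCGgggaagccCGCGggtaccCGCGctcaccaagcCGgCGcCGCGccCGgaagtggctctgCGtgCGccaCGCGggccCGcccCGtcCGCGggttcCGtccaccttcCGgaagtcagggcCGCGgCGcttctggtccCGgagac
IDH1-AS1: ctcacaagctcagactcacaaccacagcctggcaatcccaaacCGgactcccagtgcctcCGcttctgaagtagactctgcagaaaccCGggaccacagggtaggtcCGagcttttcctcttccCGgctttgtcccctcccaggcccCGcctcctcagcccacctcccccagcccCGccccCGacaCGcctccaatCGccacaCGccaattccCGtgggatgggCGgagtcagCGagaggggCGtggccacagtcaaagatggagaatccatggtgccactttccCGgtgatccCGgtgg
TTLL10-AS1: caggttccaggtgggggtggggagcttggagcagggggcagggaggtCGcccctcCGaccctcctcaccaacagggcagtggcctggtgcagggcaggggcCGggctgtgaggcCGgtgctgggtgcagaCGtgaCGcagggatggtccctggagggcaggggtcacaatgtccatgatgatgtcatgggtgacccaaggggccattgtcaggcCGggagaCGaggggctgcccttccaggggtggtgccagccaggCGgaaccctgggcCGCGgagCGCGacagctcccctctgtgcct
CLDN10-AS1: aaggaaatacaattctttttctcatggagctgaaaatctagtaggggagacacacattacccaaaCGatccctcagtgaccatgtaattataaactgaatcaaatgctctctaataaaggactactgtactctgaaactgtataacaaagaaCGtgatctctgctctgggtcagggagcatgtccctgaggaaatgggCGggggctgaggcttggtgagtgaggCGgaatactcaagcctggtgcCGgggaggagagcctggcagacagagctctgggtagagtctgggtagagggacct
EPHA1-AS1: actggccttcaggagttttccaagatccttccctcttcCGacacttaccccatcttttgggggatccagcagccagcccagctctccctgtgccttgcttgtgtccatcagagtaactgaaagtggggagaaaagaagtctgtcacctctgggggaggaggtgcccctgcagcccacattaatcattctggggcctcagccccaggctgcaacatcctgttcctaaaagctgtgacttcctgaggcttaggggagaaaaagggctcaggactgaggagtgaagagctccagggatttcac
GPC5-AS1: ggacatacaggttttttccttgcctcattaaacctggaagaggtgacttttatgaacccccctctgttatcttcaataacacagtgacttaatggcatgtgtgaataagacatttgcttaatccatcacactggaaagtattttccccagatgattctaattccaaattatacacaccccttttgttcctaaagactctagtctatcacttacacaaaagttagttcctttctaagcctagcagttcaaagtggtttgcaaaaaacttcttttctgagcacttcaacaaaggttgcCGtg

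The 6 windows ran from CpG-rich to CpG-poor. PSMG3-AS1 had 44 CG dinucleotides and 77.3% G or C, as in a CpG island promoter, while EPHA1-AS1 and GPC5-AS1 had 1 each and CLDN10-AS1 had 5. A RefSeq window was found by symbol for 493 of the 783 transcripts and for 156 of the 257 tested. In 301 of the 493 the RefSeq start lay within 20 bases of the start in the table. The others were further from it, some by many kilobases, and the medians and motif shares below include them. The median number of CG dinucleotides was 22 in the windows of tested transcripts, 12 in those of transcripts under the expression minimum and 14 over all 27305 RefSeq windows.

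Letter matches to 3 short motifs were counted in these windows on both strands. No motif is contained in another, though matches could overlap at their ends. The letters TATAAA, found in many core promoters, occurred in 5.77% of the windows of tested antisense transcripts and in 11.95% of all windows, and the CLDN10-AS1 window held them. The letters AGATAA, which GATA factors bind, occurred in 7.05% and 10.5% of windows, and the GPC5-AS1 window held them. The letters CCGGAA, a core that ETS factors bind, occurred in 21.2% and 17.6% of windows, and the PSMG3-AS1 window held them. A match is a description of these letters and was not tested as a site.

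Among the tested antisense transcripts, far more were higher in TF1-BAR than lower. The median log2 fold change of the 257 tested transcripts was 0.28, against 0.07 over all 15519 genes tested, 0.04 over 11685 protein-coding genes and 0.05 over the 546 sense genes tested. The change was positive for 77.0% of the antisense transcripts and for 57.3% of all genes tested. Each change is on the log2(FPKM + 0.5) scale, which understates the change of low transcripts.

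Most of these changes were small. At an adjusted p under 0.05 in limma with no requirement on size, 61 of the 257 transcripts were higher in TF1-BAR (23.7%) and 7 were lower (2.72%), against 16.3% and 10.5% of all genes tested. With upper-quartile scaling the antisense transcripts gave 50 higher and 7 lower, while over all genes the balance turned, from 2537 higher and 1630 lower to 1892 higher and 2223 lower. When a change of 1 or more on the log2 scale was required as well, 11 were upregulated and 1 was downregulated. Those 12 transcripts are to be read against 4.75% of all genes tested that passed both thresholds in either direction, 3.05% higher and 1.69% lower, so the share of upregulated antisense transcripts, 4.28%, was near the background. The 2 groups of libraries did not overlap, with TF1-BAR higher, for 54.1% of the antisense transcripts, against 40.9% of all genes, and with TF1-BAR lower for 11.7% against 28.4%.

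**Figure D1:**
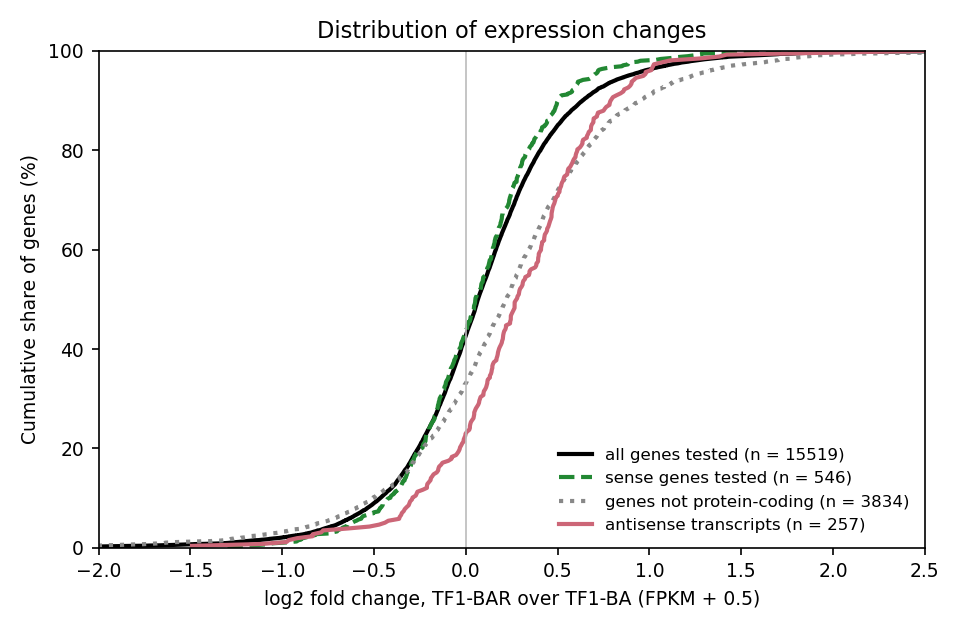
Cumulative share of genes (vertical axis, %) at or under each log2 fold change of TF1-BAR over TF1-BA (horizontal axis) for the antisense transcripts, their sense genes, all genes tested and genes that are not protein-coding. The antisense curve lies to the right of the curve of all genes, with a median of 0.28 against 0.07, and the sense genes follow the curve of all genes. A few genes with larger changes, GPC5-AS1 among them, lie beyond the axis.

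Other non-coding genes had positive medians too. Over 3834 tested genes that were not protein-coding, the median log2 fold change was 0.22, with 15.7% higher and 4.41% lower at an adjusted p under 0.05. Over 608 genes annotated as antisense that do not carry such a name, the median was 0.24, with 13.3% higher and 3.45% lower. The difference between the named antisense transcripts and these genes was not tested.

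More transcripts were higher than lower at both expression levels. Of the 89 antisense transcripts with a mean of at least 2 FPKM, 38 were higher (42.7%) and 2 were lower, with a median log2 fold change of 0.35, against 19.0% higher and 12.9% lower over all genes at that level. Among the 168 below 2 FPKM, 23 were higher (13.7%) and 5 lower (2.98%), with a median of 0.22, against 10.4% higher and 5.22% lower over all genes below 2 FPKM. The median was much the same without shared exons, although overlap with the introns of other genes was not counted. The 83 transcripts that shared no exonic base had a median of 0.27, with 19 higher and 2 lower, and the 172 that shared some had a median of 0.29, with 42 higher and 5 lower.

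The filter let in some transcripts through a single line. For 30 tested transcripts only the TF1-BAR mean reached 0.5 FPKM, for 10 only the TF1-BA mean did, and those had to differ in that direction. In the 217 tested transcripts with both means at or above 0.5 FPKM, 55 were higher and 5 lower at an adjusted p under 0.05 (25.3% and 2.30%), against 16.2% and 10.5% of the 14400 genes that met the same rule. By both thresholds 7 were upregulated (3.23%) and 1 was downregulated (0.46%), against 2.33% and 1.28% of those genes, and the medians were 0.28 and 0.06. Over all 783 antisense transcripts, the mean FPKM was higher in TF1-BAR for 509 and lower for 242. Their summed level was 722 and 711 FPKM in TF1-BA and 947 and 999.6 FPKM in TF1-BAR.

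With 1 library left out, the lone library of its line was assumed to vary like those of the other line. At an adjusted p under 0.05 fewer transcripts then passed. The same held over all genes tested, so the drop was not particular to the antisense transcripts. The median over the 257 transcripts stayed between 0.25 and 0.32 in these fits, while over all genes it lay between 0.06 and 0.08.

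Chromosomes 10 and 20 were left out because whole chromosomes moved there. The median log2 fold change over all tested genes was −0.35 on chromosome 10 and 0.39 on chromosome 20. The antisense names on them had medians of −0.05 (20 tested) and 0.26 (11 tested).

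The 2 largest changes among the antisense transcripts lay on chromosome 13. GPC5-AS1 lies inside GPC5, which encodes a cell-surface glypican, at 92701389 to 92721614 on the minus strand, and its start region is the CpG-poor window shown above. It measured 0.601 and 1.82 FPKM in TF1-BA and 7.43 and 10.3 FPKM in TF1-BAR (log2 fold change 2.53, SE 0.379, limma adjusted p = 0.0132). The TF1-BAR values lay well above the TF1-BA values, although the TF1-BA replicates differed widely from each other. GPC5-AS1 failed an adjusted p under 0.05 in at least 1 alternative fit with all libraries kept. The values stood for 5, 13, 54 and 76 fragments. GPC5 itself was under the expression minimum, with 2 and 1 fragments in TF1-BA and 10 and 9 in TF1-BAR.

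CLDN10-AS1 lies inside CLDN10, a claudin gene of epithelial tight junctions, at 95479444 to 95533910 on the minus strand of chromosome 13. It measured 0.186 and 0.217 FPKM in TF1-BA and 2.13 and 2.36 FPKM in TF1-BAR (log2 fold change 1.97, SE 0.157, adjusted p = 0.00476). Its TF1-BA mean was under 0.5 FPKM, so it was tested only because of its TF1-BAR level, and its direction followed from the filter. The TF1-BA values rested on 3 fragments in each library, against 30 and 34 in TF1-BAR. CLDN10 was under the minimum too, with 3 and 1 fragments in TF1-BA and 10 and 15 in TF1-BAR. Neither antisense transcript shared an exonic base with a listed gene, but both lie inside the sense gene, and overlap with its introns was not counted.

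The median log2 fold change of all tested genes on chromosome 13 was 0.00, while that of its 10 tested antisense transcripts was 0.62, and 5 of the 10 were higher at an adjusted p under 0.05, GPC5-AS1 and CLDN10-AS1 included, against 13.8% of all tested genes there. The chromosome was singled out after these values were seen. The others among these 5 were TPT1-AS1 (0.86), PAN3-AS1 (0.79) and SOX21-AS1 (0.68), chosen after their values were seen.

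In 3 pairs both the antisense transcript and the sense gene were upregulated. EPHA1-AS1 starts head to head with EPHA1, an ephrin receptor tyrosine kinase, and the starts lie 1079 bases apart on chromosome 7 with overlapping 5′ ends. It measured 0.928 and 0.888 FPKM in TF1-BA and 2.20 and 2.94 FPKM in TF1-BAR (log2 fold change 1.11, SE 0.161, adjusted p = 0.0123), and the lines did not overlap. EPHA1 rose as well, from 0.258 and 0.301 FPKM to 1.60 and 1.96 FPKM (1.54, SE 0.173, adjusted p = 0.00804), and it passed the filter only through TF1-BAR. The antisense level therefore fell relative to the sense level, from 360% and 295% of it in TF1-BA to 138% and 150% in TF1-BAR, but stayed above it in all 4 libraries. No exonic base of EPHA1-AS1 was shared with EPHA1.

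TTLL10-AS1, head to head with TTLL10, a gene of the tubulin tyrosine ligase-like family, measured 0.377 and 0.421 FPKM in TF1-BA and 1.76 and 1.92 FPKM in TF1-BAR (log2 fold change 1.38, SE 0.151, adjusted p = 0.00774). It too was tested only because of its TF1-BAR level, which fixed its direction. TTLL10 measured 1.73 and 1.41 FPKM in TF1-BA and 4.75 and 4.31 FPKM in TF1-BAR (1.28, SE 0.123, adjusted p = 0.00623). Both genes separated the lines, and 20.8% of the exonic length of TTLL10-AS1 was shared with TTLL10.

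FAM83A-AS1 lies inside FAM83A, whose product has been described in growth factor receptor signalling. It measured 0.864 FPKM in each TF1-BA library and 2.83 and 3.51 FPKM in TF1-BAR (log2 fold change 1.42, SE 0.140, adjusted p = 0.00657). FAM83A measured 12.2 and 9.61 FPKM in TF1-BA and 25.2 and 29.3 FPKM in TF1-BAR (1.29, SE 0.141, adjusted p = 0.00776). The lines did not overlap for either gene, and the antisense level lay between 7.06% and 11.97% of the sense level in the 4 libraries.

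**Figure D2:**
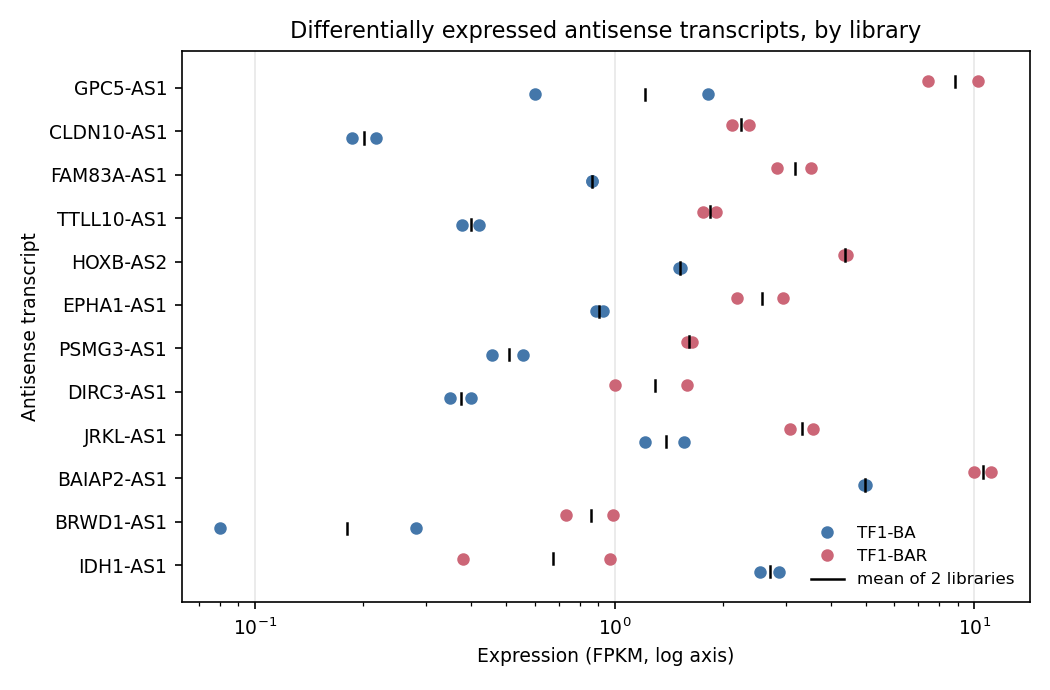
FPKM in each library (points, log axis) of the 12 antisense transcripts that passed both thresholds, with a black tick at the mean of the 2 libraries of each line. TF1-BAR lies above TF1-BA without overlap in 11 transcripts and below it in IDH1-AS1.

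Among the other upregulated transcripts, no sense gene that could be tested passed both thresholds. HOXB-AS2, which lies in the HOXB homeobox cluster at chr17:48557262-48560333, measured 1.51 and 1.53 FPKM in TF1-BA and 4.35 and 4.42 FPKM in TF1-BAR (log2 fold change 1.27, SE 0.0933, adjusted p = 0.00411). The replicates of each line nearly coincided. The other tested antisense transcripts of the cluster, HOXB-AS1 and HOXB-AS3, did not pass the test. HOXB-AS1 measured 2.63 and 2.53 FPKM against 3.26 and 3.23 FPKM (0.28, adjusted p = 0.0798), and the log2 fold change of HOXB-AS3 was 0.07 (adjusted p = 0.747), a value that turned negative with quantile normalization.

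BAIAP2-AS1 starts 241 bases from BAIAP2, an adaptor of the actin cytoskeleton, and is read away from it without overlap. It was the most abundant of the upregulated transcripts, with 4.99 and 4.94 FPKM in TF1-BA and 9.97 and 11.2 FPKM in TF1-BAR (log2 fold change 1.01, SE 0.0875, adjusted p = 0.00561), and stood on 365 to 856 fragments a library. BAIAP2 was higher as well, at 2.64 and 2.62 FPKM against 3.66 and 3.92 FPKM (0.46, adjusted p = 0.0264). The antisense transcript exceeded its sense gene in every library.

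PSMG3-AS1 starts head to head with PSMG3, a proteasome assembly chaperone, from the CpG-rich window shown above. It measured 0.558 and 0.458 FPKM in TF1-BA and 1.64 and 1.59 FPKM in TF1-BAR (log2 fold change 1.07, adjusted p = 0.0122). PSMG3, which was far more abundant, measured 20.7 and 18.6 FPKM against 25.3 and 28.9 FPKM (0.46, adjusted p = 0.0299).

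BRWD1-AS1 and DIRC3-AS1 were the weakest calls, and both failed an adjusted p under 0.05 in at least 1 alternative fit with all libraries kept. BRWD1-AS1 rested on 1 and 3 fragments in TF1-BA and on 8 and 11 in TF1-BAR (log2 fold change 1.01, adjusted p = 0.0445), while the chromatin gene BRWD1 did not pass the test (−0.14, adjusted p = 0.343). DIRC3-AS1 rested on 4 and 3 fragments in TF1-BA and 14 and 9 in TF1-BAR (1.02, adjusted p = 0.0313), and its sense gene DIRC3 was under the expression minimum. Both transcripts reached 0.5 FPKM only through TF1-BAR, so the filter fixed their direction.

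IDH1-AS1 was the single downregulated antisense transcript. It lies inside IDH1, the cytosolic NADP-dependent isocitrate dehydrogenase, at chr2:208255247-208256181, and its RefSeq window holds 17 CG dinucleotides. It measured 2.54 and 2.86 FPKM in TF1-BA and 0.969 and 0.380 FPKM in TF1-BAR (log2 fold change −1.49, SE 0.268, adjusted p = 0.0205), on 30, 29, 10 and 4 fragments. Both TF1-BAR libraries were below both TF1-BA libraries, with a wide gap between the TF1-BAR replicates. IDH1 fell too, from 51.5 and 59.4 FPKM to 40.3 and 37.6 FPKM (−0.50, SE 0.0908, adjusted p = 0.0208), and the antisense level dropped from 4.93% and 4.82% of the sense level to 2.41% and 1.01%. IDH1 and IDH1-AS1 shared 13.7% of the exonic length of the antisense transcript. Without a filter on low values the adjusted p of IDH1-AS1 was 0.0833, without TF1-BA replicate 1 it was 0.102 and without TF1-BA replicate 2 it was 0.117.

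The other 6 transcripts that were lower at an adjusted p under 0.05 changed by less than 1. They were HLA-DQB1-AS1 (−0.98) and PSMB8-AS1 (−0.78), both in the major histocompatibility region, and TMEM92-AS1 (−0.96), MATN1-AS1 (−0.83), TMC3-AS1 (−0.79) and TBX2-AS1 (−0.64). The HLA class II gene HLA-DQB1 was lower as well (−0.43, adjusted p = 0.0465), as was the immunoproteasome gene PSMB8 (−0.54, adjusted p = 0.00901). HLA-DQB1-AS1 and PSMB8-AS1 passed the filter only through TF1-BA, which fixed their direction. All but TMEM92-AS1 among these 6 were named after their values were seen.

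Over the 222 pairs, the antisense transcript and the sense gene changed with the same sign in 135 (60.8%), where 76.6% of the antisense transcripts and 60.8% of the sense genes of these pairs had positive changes. Pearson's r of the 2 changes over the 222 pairs was 0.26 and Spearman's rho was 0.19, given as a description, since both genes of a pair share libraries, depth and, in places, sequence. In 22 pairs both genes passed an adjusted p under 0.05, with 14 pairs higher in both, 3 lower in both and 5 opposite. In 35 pairs only the antisense transcript passed, in 47 only the sense gene, and in 118 neither did. Among the 546 sense genes tested, 93 were higher and 62 lower at an adjusted p under 0.05, or 17.03% and 11.4%, near the 16.3% and 10.5% of all genes. By both thresholds 11 were upregulated (2.01%) and 5 downregulated (0.92%), against 3.05% and 1.69% of all genes.

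The median antisense change was positive in each position of the pair. Of the tested transcripts, 70 overlapped the sense gene head to head, with a median log2 fold change of 0.35 and 20 higher and 2 lower at an adjusted p under 0.05. These counts stand beside 16.3% higher and 10.5% lower over all genes and 23.7% and 2.72% over all 257 antisense transcripts. The 53 that overlapped it tail to tail had a median of 0.41, with 14 higher and 1 lower. The divergent transcripts, read away from a sense start within 1000 bases and without overlap, numbered 53 and had a median of 0.27, with 13 higher and 0 lower. The 59 inside the sense gene had a median of 0.25, with 10 higher (16.9%) and 2 lower, and the 11 that contained the sense gene had a median of 0.11, with 1 in each direction. The other 11, with no overlap or no row for the sense gene, had a median of 0.40, with 3 higher and 1 lower. Among the divergent transcripts, 17 were higher and 1 was lower at an unadjusted p under 0.05, and 16 were higher and 0 lower at an adjusted p under 0.05 with limma voom. With voom, 83 of the 257 antisense transcripts were higher and 9 lower, and 3490 and 2384 of the 15519 genes tested. Differences between positions were not tested. The correlation of the 2 changes in a pair was r = 0.42 over the 49 pairs with the antisense transcript inside the sense gene (same sign in 73.5%) and 0.41 over the 66 head to head pairs (59.1%). It was 0.23 over the 44 tail to tail pairs (59.1%), 0.10 over the 53 divergent pairs (56.6%) and −0.02 over the 8 pairs with the sense gene inside (50%), again as a description.

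Relative to the sense gene, with 0.5 FPKM added to both, the antisense level was higher in TF1-BAR without overlap in 103 of the 222 pairs and lower without overlap in 41, and the lines overlapped in 78. These pairs include antisense transcripts whose own direction the filter fixed, because they passed it through a single line. On ratios of FPKM with nothing added, chosen after seeing the data, the numbers were 105, 41 and 76, but 22 pairs were placed differently and 2 of these, EPB41L4A-AS1 and SLC2A1-AS1, turned from higher to lower. For single genes such separation was common, with 40.9% of all genes tested higher and 28.4% lower. With 2 libraries against 2 an exact permutation test cannot give a p below 0.33, and the ratios are given as a description.

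In the 5 opposite pairs the antisense transcript rose in 4 and fell in 1. Outside the ASMTL pair, every gene of these pairs failed an adjusted p under 0.05 in at least 1 alternative fit with all libraries kept. ASMTL-AS1, which overlaps the 3′ end of ASMTL, measured 6.31 and 6.20 FPKM in TF1-BA and 10.5 and 10.3 FPKM in TF1-BAR (log2 fold change 0.69, SE 0.0722, adjusted p = 0.00714). ASMTL measured 61.4 and 62.5 FPKM in TF1-BA and 42.3 and 38.8 FPKM in TF1-BAR (−0.61, SE 0.0682, adjusted p = 0.00809). The antisense level went from 10.3% and 9.92% of the sense level to 24.8% and 26.4%.

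JRKL-AS1 lies inside the gene body that the table gives for JRKL, a gene related to a transposase. It measured 1.56 and 1.21 FPKM in TF1-BA and 3.57 and 3.07 FPKM in TF1-BAR (log2 fold change 1.02, SE 0.144, adjusted p = 0.0121), on 8 to 24 fragments a library. JRKL measured 10.8 and 9.94 FPKM against 8.40 and 7.57 FPKM (−0.36, adjusted p = 0.0441). No exonic base was shared by the 2 genes, and the lines did not overlap for either.

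VLDLR-AS1 and PSMA3-AS1 rose while VLDLR, a lipoprotein receptor, and PSMA3, a subunit of the proteasome core, fell. VLDLR-AS1 measured 0.508 and 0.703 FPKM in TF1-BA and 1.60 and 1.71 FPKM in TF1-BAR (log2 fold change 0.97, adjusted p = 0.0180), and VLDLR measured 3.59 and 3.40 FPKM against 2.63 and 2.60 FPKM (−0.36, adjusted p = 0.0451). PSMA3-AS1 measured 4.05 and 3.87 FPKM against 6.10 and 5.26 FPKM (0.47, adjusted p = 0.0309), and PSMA3 measured 30.7 and 31.1 FPKM against 25.3 and 23.9 FPKM (−0.32, adjusted p = 0.0265). None of the 4 genes overlapped between the lines.

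TMEM92-AS1, which does not overlap TMEM92, went the other way. It measured 1.77 and 2.24 FPKM in TF1-BA and 1.02 and 0.581 FPKM in TF1-BAR (log2 fold change −0.96, SE 0.217, adjusted p = 0.0336). TMEM92, a transmembrane protein gene, measured 0.858 and 0.667 FPKM against 1.94 and 1.71 FPKM (0.88, SE 0.155, adjusted p = 0.0195). The antisense transcript was at 207% and 336% of the sense level in TF1-BA and at 52.2% and 34.1% in TF1-BAR, so the order of the genes within the pair changed.

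None of the 10 most abundant antisense transcripts passed both thresholds, and 7 were higher at an adjusted p under 0.05, beside 42.7% of the antisense transcripts and 19.0% of all genes with a mean of at least 2 FPKM. LRRC75A-AS1, a host transcript of small nucleolar RNAs, was the highest, with 68.1 and 70.4 FPKM in TF1-BA and 105 and 115 FPKM in TF1-BAR (log2 fold change 0.66, SE 0.0702, adjusted p = 0.00733). Its sense gene LRRC75A was hardly expressed, at 0.450 and 0.490 FPKM against 0.910 and 1.21 FPKM. NCBP2-AS2, which is annotated as protein-coding and starts 26 bases from NCBP2 on the other strand, measured 23.0 and 26.2 FPKM in TF1-BA and 40.8 and 44.6 FPKM in TF1-BAR (0.78, adjusted p = 0.00884).

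The other rises were smaller in FPKM. EPB41L4A-AS1, another small nucleolar RNA host, rose from 10.1 and 9.65 FPKM to 16.7 and 21.4 FPKM (log2 fold change 0.90, adjusted p = 0.0123). GABPB1-AS1 rose from 10.6 and 10.3 FPKM to 19.0 and 18.7 FPKM (0.82, adjusted p = 0.00505). The remaining log2 fold changes of those that rose were 0.43 for MAPKAPK5-AS1, 0.41 for FGD5-AS1 and 0.31 for THAP9-AS1. TMEM147-AS1 (0.01, adjusted p = 0.969), CHRM3-AS2 (0.02, adjusted p = 0.841) and BOLA3-AS1 (0.10, adjusted p = 0.513) did not pass the test, and the first 2 changed sign with another scaling.

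A list of 30 antisense transcripts with described roles was drawn up, and all 30 were in the table. Of the 21 that could be tested, 9 were higher at an adjusted p under 0.05, 0 were lower and 0 passed both thresholds in limma, with a median log2 fold change of 0.31 against 0.28 over all 257. The 9 make up 42.9%, against 23.7% of all 257 antisense transcripts and 16.3% of all genes. The listed transcripts were more abundant, with a median level of 2.72 FPKM against 1.38 FPKM over the 257. Among antisense transcripts with a mean of at least 2 FPKM, 42.7% were higher, a share near that of the list. At an unadjusted p under 0.05, 10 were higher and 0 lower. With limma voom 9 were higher and 1 lower at an adjusted p under 0.05, and 2 were upregulated. Over all 257 antisense transcripts voom gave 83 higher and 9 lower. Besides those above, they included SLC9A3-AS1 (0.93), PCBP1-AS1 (0.90), MCM3AP-AS1 (0.71) and FOXP4-AS1 (0.66). For SLC9A3-AS1 and FOXP4-AS1 the sense gene was higher too: the sodium-proton exchanger SLC9A3 by 0.85 and the forkhead factor FOXP4 by 0.68.

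Several well-known transcripts did not pass the test in limma. GATA2-AS1, head to head with the haematopoietic transcription factor GATA2, measured 9.93 and 8.64 FPKM in TF1-BA and 10.4 and 10.7 FPKM in TF1-BAR (log2 fold change 0.18, adjusted p = 0.217). GATA2 stood at 204 and 195 FPKM against 233 and 241 FPKM (0.25, adjusted p = 0.0339), and the antisense level was 4.42% to 4.87% of it in every library. OIP5-AS1, also known as Cyrano, measured 11.8 and 12.1 FPKM against 10.95 and 9.25 FPKM (−0.24, adjusted p = 0.146). With limma voom on recovered fragments its adjusted p was 0.0467, and over all alternatives it ranged from 0.0467 to 0.420.

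CDKN2B-AS1, also called ANRIL, spans the cell cycle inhibitor gene CDKN2B. It measured 0.643 and 0.383 FPKM in TF1-BA and 0.646 and 0.692 FPKM in TF1-BAR (log2 fold change 0.22, SE 0.217, adjusted p = 0.486). CDKN2B was downregulated, from 23.2 and 27.3 FPKM to 9.87 and 10.0 FPKM (−1.30, SE 0.0975, adjusted p = 0.00430). The difference between the 2 changes was not tested.

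A pair of low transcripts was recorded in a single line. SMIM2-AS1 had 0 fragments in each TF1-BA library and 5 and 9 in TF1-BAR, at least 2.46-fold higher when each TF1-BA library is set to 3 fragments. COL18A1-AS2 had 5 and 4 fragments in TF1-BA and 0 in both TF1-BAR libraries. Both were under the expression minimum. In the fit with no filter on low values the adjusted p was 0.108 for SMIM2-AS1 and 0.0378 for COL18A1-AS2, whose log2 fold change of −0.98 was short of the fold change threshold.

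Many antisense transcripts are degraded in the nucleus, and the genes of that machinery were listed and examined. Of 24 listed genes of the exosome, its cofactors, the cap-binding complex and XRN2, 23 were in the table and all 23 were tested. None passed both thresholds, with limma voom either, and the median log2 fold change was −0.02. At an adjusted p under 0.05 in limma, 5 were higher and 1 was lower, and at an unadjusted p under 0.05 these numbers were 8 and 4. Of the 23, 21.7% were thus higher and 4.35% lower, against 16.3% and 10.5% of all genes. With limma voom the balance was 7 higher and 5 lower at an adjusted p under 0.05, beside 3490 higher and 2384 lower over the 15519 genes tested. The exosome subunits EXOSC5 (0.54) and EXOSC6 (0.40), the nuclear poly(A)-binding protein gene PABPN1 (0.30), the cap-binding gene NCBP2 (0.30) and the exonuclease gene XRN2 (0.34), which lies on chromosome 20, were higher, while the subunit EXOSC7 was lower (−0.43). The other 17 included the catalytic subunits EXOSC10 (0.09, adjusted p = 0.387) and DIS3 (−0.13, adjusted p = 0.290). Whether these levels bear on the antisense transcripts was not tested.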

How the data were processed

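RNA of TF1-BA and TF1-BAR cells (2 libraries each) was sequenced after NEBNext Ultra library preparation. The authors mapped reads to GRCh38 with TopHat2 (2.0.13), and the submitters' notes name Cufflinks and Cuffdiff (2.2.0). The deposited values are FPKM per gene, normalised by the authors to length and library. Groups came from the labels. Comparisons used limma (3.58.1, R 4.3.3; lmFit, then eBayes with a trend) on FPKM plus 0.5 after a log2 transform, without covariates. The 15519 genes that averaged 0.5 FPKM or more entered the fit, with Benjamini-Hochberg adjustment over all of them. Upregulated and downregulated genes had an adjusted p under 0.05 and changed by 1 or more on the log2 scale. The authors' methods name a count test, which cannot be run directly on FPKM. Fragments were recovered from the FPKM by finding library sizes and gene lengths that gave whole numbers, within 0.001 fragments, for all 30853 genes above 0: 14220 at their GENCODE 44 exon length and 16633 at a fitted length. The fitted lengths are the shortest that give whole numbers, so those counts are lower bounds up to a whole factor. Counting intervals and floors of 3 fragments cover counting error only. Symbols that a spreadsheet had turned into dates (26) were restored. The method was tested on simulated data.

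Antisense transcripts were named by rule: those called, the 10 most abundant, a list of described transcripts, and pairs with both genes called or with opposite changes. The antisense transcripts, lists and tests were chosen with earlier results of these data known. A few named genes are not reported here. Sequences are from RefSeq (GRCh38.p14). Alternatives covered the pseudocount, the filter, quantile and upper-quartile scaling, the variance trend, limma voom on recovered fragments, a replicate block and leaving out each library.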

Additional observations from a re-analysis of the deposited data

How the results depend on the processing

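The number of upregulated antisense transcripts, 11, was 26 with limma voom on recovered fragments, 20 with a pseudocount of 0.1 FPKM, 7 with upper-quartile scaling and 5 with no filter on low values, a pseudocount of 1 FPKM or quantile normalization. It was 61 with no fold change threshold and 0 to 8 with 1 library left out. The downregulated number, 1, was 4 with voom, 5 with a pseudocount of 0.1 FPKM, 3 with quantile normalization or upper-quartile scaling, 0 with no filter, 7 with no fold change threshold and 0 to 2 with 1 library left out. Upregulated sense genes, 11, numbered 24 with voom, 19 and 7 with pseudocounts of 0.1 and 1 FPKM, 93 with no fold change threshold and 1 to 12 with 1 library left out. Downregulated sense genes, 5, numbered 11 with voom, 10 with a pseudocount of 0.1 FPKM, 9 with quantile normalization, 62 with no fold change threshold and 0 to 5 with 1 library left out. Pairs with both genes called, 3, numbered 5 with voom or a pseudocount of 0.1 FPKM, 22 with no fold change threshold and 0 to 3 with 1 library left out. RNA surveillance genes, 0, numbered 6 with no fold change threshold and 0 under every other alternative. Over all genes too, more passed an adjusted p under 0.05 with voom, 3490 higher and 2384 lower against 2537 and 1630. Fewer did so with 1 library left out. The causes were not tested.

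At an adjusted p under 0.05 the antisense transcripts split into 46 higher and 7 lower with quantile normalization (all genes 2043 and 1930), and into 50 and 7 with upper-quartile scaling (all genes 1892 and 2223). Their median log2 fold change was then 0.18 and 0.20, against −0.00 and −0.01 over all genes. With no filter it was 0.10 over 751 transcripts, and 17 were higher and 2 lower.

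Replicate numbers are shared by the lines. Over the 15519 genes tested, the difference between the replicates of TF1-BA correlated at 0.06 with that between the replicates of TF1-BAR. A single value from so few libraries cannot show whether same-numbered libraries shared a batch or a culture. With the replicate block, 11 antisense transcripts were upregulated and 1 downregulated, and 56 were higher and 4 lower at an adjusted p under 0.05.

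Signs turned for genes near 0. With quantile normalization the log2 fold changes were −0.061 (HOXB-AS3), −0.018 (TMEM147-AS1) and −0.051 (OIP5), and with upper-quartile scaling −0.084 (TMEM147-AS1), −0.065 (CHRM3-AS2), −0.083 (OIP5) and −0.053 (PCBP1). With 1 library left out they ranged from −0.125 to 0.048 (CD27-AS1), −0.036 to 0.084 (CHRM3-AS2), −0.032 to 0.179 (HOXB-AS3), −0.353 to 0.099 (KDM4A-AS1), −0.319 to 0.050 (NNT-AS1), −0.161 to 0.167 (OIP5), −0.073 to 0.147 (PCBP1), −0.093 to 0.105 (TMEM147-AS1) and −0.014 to 0.248 (VPS9D1-AS1). None of these was called. Depth limits the lowest transcripts most: 12 of those tested had under 10 fragments in every library.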

Other observations

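Of the 16 sense genes that passed both thresholds, 12 had no antisense transcript above the expression minimum (75%, against 60.3% of the 546 sense genes tested), and 7 of these 12 had at most 3 antisense fragments in every library. LIN28B, an RNA-binding repressor of let-7 microRNAs, measured 4.59 and 4.01 FPKM in TF1-BA and 20.2 and 17.5 FPKM in TF1-BAR (log2 fold change 2.01, limma adjusted p = 0.00289), while LIN28B-AS1 had 0, 0, 1 and 0 fragments. CYYR1 rose from 1.46 and 1.86 FPKM to 6.95 and 7.07 FPKM (1.80, adjusted p = 0.00405), with at most 4 fragments of CYYR1-AS1 in a library. The homeobox gene DLX2 fell from 5.15 and 6.14 FPKM to 2.03 and 2.16 FPKM (−1.24, adjusted p = 0.00597), and DLX2-AS1 had 5, 4, 5 and 4 fragments. These antisense transcripts were under the expression minimum and were not tested.

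VASH1, which encodes a tubulin carboxypeptidase, was the sense gene of this kind whose antisense transcript had the most fragments in a library. VASH1 measured 3.10 and 2.76 FPKM in TF1-BA and 7.00 and 8.31 FPKM in TF1-BAR (log2 fold change 1.25, adjusted p = 0.00603), and VASH1-AS1 had 8, 7, 14 and 18 fragments, so that its lines did not overlap either. These genes were chosen after their values were seen.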
